A study of Mus musculus with 36 samples.

Results

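The Fos and Jun genes encode the subunits of activator protein 1 (AP-1), and 7 of the 37315 genes in the count table belong to this family: Fos, Fosb, Fosl1, Fosl2, Jun, Junb and Jund. They were taken by gene symbol as the known members of the family. The Fos proteins pair with Jun proteins through leucine zippers, while Jun proteins can also pair with each other, and the pairs bind the AP-1 site in DNA. In neurons, Fos, Fosb and Junb are immediate-early genes, transcribed within minutes of strong synaptic input, and Fos RNA and protein are widely used as marks of recently active cells. Jund is expressed more steadily, and a shortened form of FosB, delta-FosB, is long-lived and accumulates after repeated stimulation.

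Messenger RNA had been sequenced from the hippocampal fields CA1 and CA3 and from the entorhinal cortex of mice, its medial (MEC) and lateral (LEC) part. In each region there were 3 libraries from mice given a foot shock (labelled fear), 3 from mice exposed to a context without it (labelled context) and 3 from mice left in the home cage, which makes 12 groups and 36 libraries. All groups were wild-type mice on a BL/6 background, kept 1 to a cage and handled for 3 minutes a day over 5 days, and mice were killed 90 minutes after the behaviour. The labels give neither age nor sex, and they do not say from which mouse a library came. The design text has the 4 regions dissected from each mouse, so libraries of different regions probably share mice, and fits across regions treated them as independent. As no label names separate animals, a p-value here measures only how libraries of a group spread, which may be technical in part.

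Library totals ran from 21871412 to 68974340 counts (median 28098007). All 7 genes passed the filter on low counts in every fit, and the lowest count of any of them in a library was 12, for Junb in CA3. Region markers followed the labels in part. Levels are given in CPM, counts scaled to the library total without edgeR's normalization, which entered the fits. Bok, a CA3 pyramidal cell marker, had a median of 88.1 CPM in CA3, against 15.1 in CA1. Tbr1, a cortical layer marker, had medians of 105 in MEC and 80.0 in LEC, against 31.4 in CA3 and 27.9 in CA1. Wfs1, a marker of CA1 pyramidal cells, had a median of 388 CPM in CA1 and 30.3 in CA3, but also 208 in MEC. The dentate granule cell marker Prox1 had a median of 121 CPM in CA1 and 43.7 in CA3, so both hippocampal dissections held granule cell RNA. In such bulk tissue, a change in how many cells express a gene and a change in RNA per cell cannot be told apart.

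After behaviour, 3 of the Fos genes were higher than in the home cage and none of the Jun genes passed the test. In the contrast averaged over the 4 regions, Fosb, Fos and Fosl2 rose both after fear and after context exposure, by 1.55 to 2.58-fold. In those contrasts 14.2% of all genes tested were called higher after fear (24.1% in either direction) and 13.5% after context (22.1% in either direction). In a fit of MEC alone, Fosb was 3.35-fold, Fos 2.22-fold and Fosl2 1.43-fold higher after fear. Fear and context were not told apart for any of the 7 genes. A gene was called at an adjusted p under 0.05 from edgeR's quasi-likelihood test with Benjamini-Hochberg adjustment over all genes tested, and changes are log2 fold changes with standard errors. Both behaviour groups were set against the same home cage libraries, so their 2 comparisons are not independent.

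**Figure D1:**
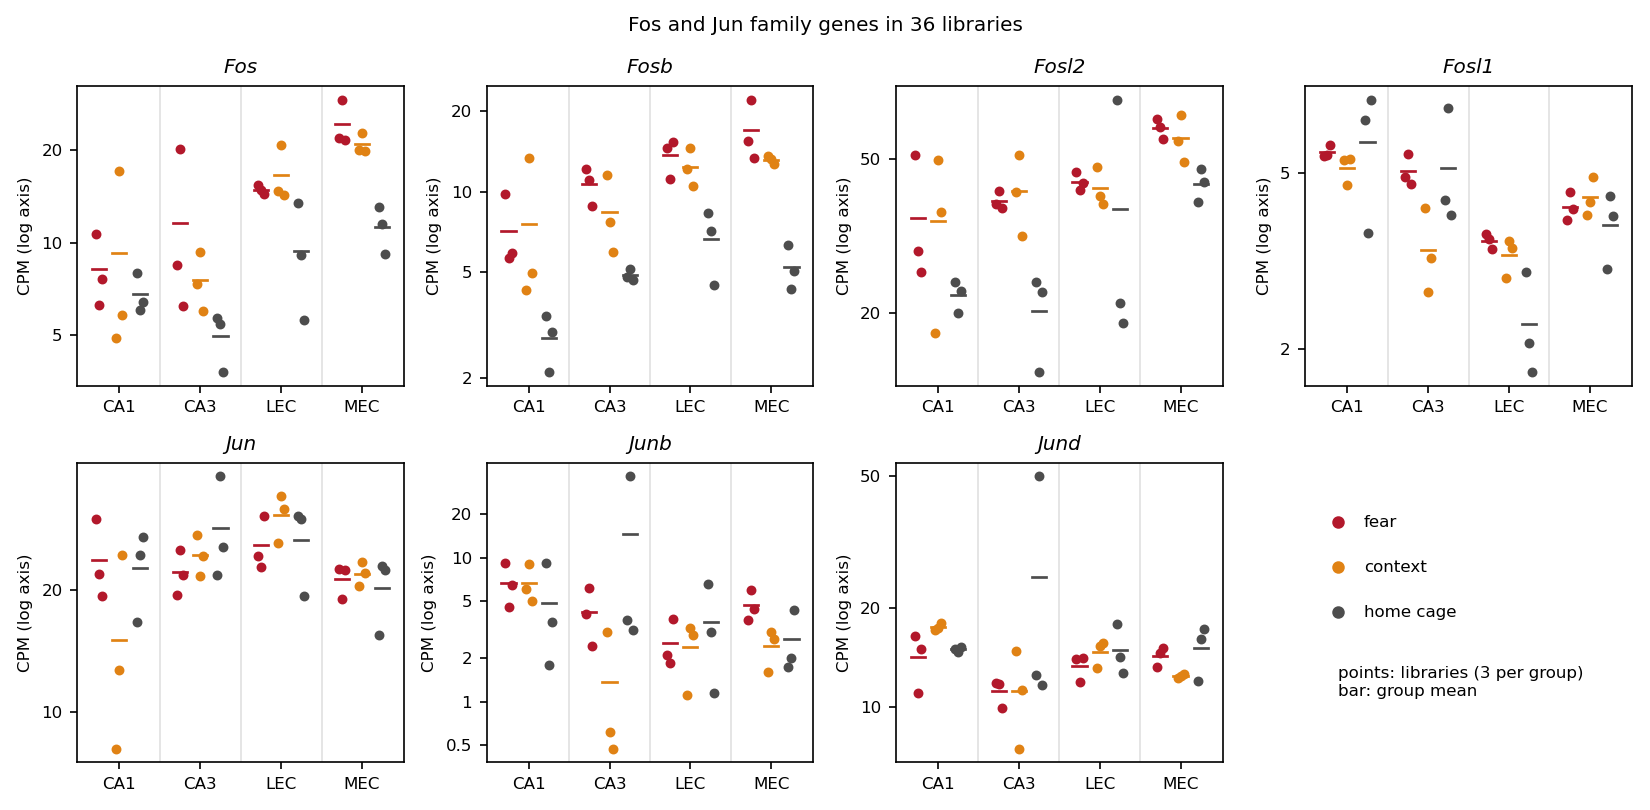
Levels of the 7 genes in CPM (log axis) by region, with each library as a point and the mean of 3 libraries as a bar, for fear (red), context (orange) and home cage (grey). Fosb in fear and context libraries lay above every home cage library of the same region, whereas Junb and Jund in CA3 had 1 home cage library far above the rest.

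In MEC, 3 of the 7 genes were called higher after fear and none lower, where 5.68% of the 16314 genes tested were called higher, 3.88% lower and 9.56% in all. After context 2 of the 7 were called higher and none lower, where 0.497% of genes were called higher, 0.0736% lower and 0.57% in all. The median log2 change of the 7 genes was 0.51 after fear and 0.25 after context, beside -0.01 and -0.02 over all genes tested. When all 36 libraries shared 1 estimate of the spread, only Fosb after fear was called in MEC (1.77, adjusted p = 0.00343). Fos (1.17, adjusted p = 0.0951) and Fosl2 (0.54, adjusted p = 0.438) after fear were then not called, nor were Fosb (1.40, adjusted p = 0.201) and Fos (0.96, adjusted p = 0.624) after context. Oligodendrocyte markers moved with condition in the same libraries. Their summed level in MEC was 2420, 3370 and 3143 CPM in fear, 2432, 2352 and 2733 in context and 2363, 1681 and 1656 in home cage libraries, with 5 of 9 markers called higher after fear and none of the 9 at 0. Of the other cell type lists, 3 of 4 CA3 pyramidal, 2 of 5 CA1 pyramidal, 3 of 7 endothelial, 2 of 8 neocortical layer, 2 of 7 interneuron and 2 of 8 dentate granule markers were called higher in MEC after fear. Called lower were 1 of 8 dentate granule, 2 of 7 astrocyte and 1 of 7 meningeal and mural markers. With the mean level of the oligodendrocyte markers as a covariate no member was called in MEC: the log2 changes after fear were then 1.31 for Fosb (adjusted p = 0.0996), 0.77 for Fos (0.182) and 0.81 for Fosl2 (0.0815), and after context 1.10 for Fosb (0.0695) and 0.70 for Fos (0.129). The part of cell composition in the MEC results was not tested further.

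Fosb (ENSMUSG00000003545, GRCm38 chromosome 7, 19302696 to 19310051, minus strand) encodes the FosB protein, and gene-level counts do not separate its full-length transcript from that of delta-FosB. In MEC it had 15.5, 22.2 and 13.4 CPM in fear libraries and 13.6, 13.2 and 12.7 CPM in context libraries, against 6.31, 4.31 and 5.05 CPM in home cage libraries. Both behaviour groups thus lay above the home cage group with no overlap, and fear 2 was the highest of the 9 libraries. The log2 change was 1.75 ± 0.20 after fear (SE, n = 3 each; adjusted p = 0.000349) and 1.37 ± 0.20 after context (adjusted p = 0.00824), the second no longer called without MEC context 1 (adjusted p = 0.0513).

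The same separation held for Fosb in the other regions. In CA3 the libraries had 12.2, 11.02 and 8.87 CPM after fear and 11.6, 7.69 and 5.91 CPM after context, against 4.80, 5.12 and 4.67 CPM in the home cage. The home cage libraries lay close together, and every other CA3 library was higher. The log2 change in CA3 was 1.23 ± 0.24 after fear (adjusted p = 0.15) and 0.91 ± 0.24 after context (adjusted p = 0.045). In LEC, Fosb had 14.6, 11.2 and 15.4 CPM after fear and 12.1, 14.6 and 10.5 CPM after context, against 8.29, 7.13 and 4.44 CPM in the home cage. The groups again did not overlap, and the log2 changes were 1.03 ± 0.24 (adjusted p = 0.527) and 0.89 ± 0.24 (adjusted p = 1.00), neither called. CA1 had the lowest Fosb levels, at 9.80, 5.62 and 5.90 CPM after fear and 4.29, 13.3 and 4.96 CPM after context, against 3.403, 2.09 and 2.97 CPM in the home cage. Fear 1 and context 2 stood well above the other libraries of their groups, and the log2 changes of 1.38 ± 0.43 after fear and 1.47 ± 0.43 after context were not called (adjusted p = 0.104 and 0.115). Without CA1 context 2 the second was 0.76. No cell type marker was called in CA1 by edgeR, which called 0% of all genes there. Oligodendrocyte markers summed to 6549, 5018 and 3480 CPM in fear, 5676, 6380 and 5494 CPM in context and 7118, 13150 and 4334 CPM in home cage libraries. The log2 changes of all 9 markers were negative after fear and after context, although the sum in home cage 3 was below that of every context library. The median dentate granule marker was -1.28 after context on the log2 scale and the median CA3 pyramidal marker -1.22. With the dentate granule markers as a covariate Fosb was 1.43 after fear (adjusted p = 0.0836) and 0.64 after context (adjusted p = 0.685). The part of the other cell types was not tested. DESeq2 called Fosb after fear in CA1, CA3 and LEC and after context in CA1 (adjusted p = 0.0144, 0.00122, 0.0368 and 0.0142).

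Averaged over the regions, Fosb rose by 1.37 ± 0.16 after fear (adjusted p = 2.14e-06) and by 1.18 ± 0.16 after context (adjusted p = 3.85e-05), calls that were kept under each alternative fit of that contrast. Of 15331 genes tested in all 4 regions, 0.626% lay above home cage without overlap in all 4 regions after fear, 0.326% after context and 0.117% (18 genes) after both. Fosb was the 1 member of the family among those 18, and it was singled out after its values were seen.

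Fos (ENSMUSG00000021250, chromosome 12, 85473890 to 85477273, plus strand) encodes c-Fos, the partner of Jun proteins after which the family is named. In MEC it had 22.01, 29.2 and 21.6 CPM in fear libraries and 20.02, 22.8 and 19.9 CPM in context libraries, against 13.1, 11.5 and 9.22 CPM in home cage libraries. No behaviour library fell to the home cage range, and the log2 change was 1.15 ± 0.16 after fear (adjusted p = 0.0014) and 0.94 ± 0.16 after context (adjusted p = 0.0251). The fear call was kept without any 1 library, whereas the context call was lost without any of the 3 context libraries or home cage 2. LEC had 15.4, 14.9 and 14.4 CPM after fear and 14.8, 20.7 and 14.3 CPM after context, against 13.5, 9.14 and 5.59 CPM in the home cage, again with no overlap. Neither LEC change was called, at 0.64 ± 0.26 after fear (adjusted p = 0.624) and 0.81 ± 0.26 after context (adjusted p = 1.00).

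In CA3, Fos had 8.44, 20.2 and 6.22 CPM after fear and 7.37, 9.32 and 5.99 CPM after context, against 5.68, 5.46 and 3.79 CPM in the home cage. The groups did not overlap, but fear 2 stood far above every other CA3 library, and it also had the highest summed level of dentate granule markers in CA3 (348 CPM, against 87.5 to 277 CPM in the other 8). The part of granule cell RNA in this value was not tested. The changes were 1.29 ± 0.36 after fear (adjusted p = 0.153) and 0.73 ± 0.36 after context (adjusted p = 0.166). CA1 showed no separation of the groups. Its Fos levels were 10.7, 6.27 and 7.64 CPM after fear and 4.91, 17.1 and 5.84 CPM after context, against 7.99, 6.07 and 6.43 CPM in the home cage. Context 2 stood apart with the lowest granule marker level in CA1 (151 CPM), and without it the CA1 context change was -0.29 in place of 0.51 ± 0.43. Averaged over the regions, Fos rose by 0.88 ± 0.18 after fear (adjusted p = 0.000775) and by 0.76 ± 0.18 after context (adjusted p = 0.00346). The averaged context call was lost without context 2 of all regions, at 0.45 (adjusted p = 0.0709).

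The bases before the start of Fos, Fosb and Junb are shown because each holds TGACG and these members were named above as immediate-early genes. TGACG is the core of the cyclic AMP response element, to which CREB binds. The windows are the 250 bases before the RefSeq transcription start (GRCm38.p6), 5′ to 3′ on the gene's own strand. Capitals mark TGACG on either strand and TATAAA, the TATA box.
Fos, chr12:85473640-85473889, plus strand: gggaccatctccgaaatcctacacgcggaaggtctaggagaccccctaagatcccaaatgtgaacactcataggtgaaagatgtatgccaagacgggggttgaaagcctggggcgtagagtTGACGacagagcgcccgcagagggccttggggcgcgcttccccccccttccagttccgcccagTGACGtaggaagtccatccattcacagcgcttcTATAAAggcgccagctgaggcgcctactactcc
Fosb, chr7:19310046-19310295, minus strand: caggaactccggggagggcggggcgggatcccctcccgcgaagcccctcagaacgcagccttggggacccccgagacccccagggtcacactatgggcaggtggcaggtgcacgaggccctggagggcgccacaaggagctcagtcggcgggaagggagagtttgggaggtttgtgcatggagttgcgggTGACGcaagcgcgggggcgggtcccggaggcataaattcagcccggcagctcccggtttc
Junb, chr8:84978749-84978998, minus strand: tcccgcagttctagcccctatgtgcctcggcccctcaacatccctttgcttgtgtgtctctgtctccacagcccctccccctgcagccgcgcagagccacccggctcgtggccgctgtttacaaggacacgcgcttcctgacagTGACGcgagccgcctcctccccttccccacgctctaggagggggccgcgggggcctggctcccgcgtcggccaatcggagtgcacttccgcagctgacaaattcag
Fos held TGACG at positions -129 to -125 and -66 to -62, counted from the start, and a TATA box at -33 to -28. Fosb held TGACG at -60 to -56, and Junb held it at -106 to -102. Of 32851 promoter windows of the same length, 17.8% held TGACG and 12.4% held TATAAA. The full element TGACGTCA (1.55% of windows) and the AP-1 site TGANTCA (6.75%) were not in these 3 windows. Nor was the CArG box bound by serum response factor (1.47%). Both strands were searched, but no bases farther than 250 before the start, so sites beyond that are not covered. A TGACGTCA would also count as a TGACG. The windows of Fosl2, Jun and Jund, searched alike but not shown, held none of these motifs, and Fosl1 was not matched. The Fosl2 window (chr5:32136222-32136471) lay inside the span given here for Fosl2, which starts at 32135801. The Jund window (chr8:70697489-70697738) ended well before the span given for Jund, which starts at 70698949. For Fosl2 and Jund the bases just before those span starts were thus not searched. As TGACG was a reason to show the 3 windows, its presence in each is not a result. A link between the motifs and the responses was not tested.

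Fosl2 (ENSMUSG00000029135, chromosome 5, 32135801 to 32157842, plus strand) encodes Fra-2, a Fos-related protein that lacks the strong activation domain of c-Fos. In MEC it had 63.5, 60.6 and 56.3 CPM in fear libraries and 55.8, 65.2 and 49.3 CPM in context libraries, against 38.8, 47.3 and 43.8 CPM in home cage libraries. The groups did not overlap, though context 3 came close to home cage 2. The change after fear was 0.51 ± 0.11 (adjusted p = 0.0155). That call was lost without MEC fear 2 or home cage 1 and with offsets for GC content and length, at 0.30 (adjusted p = 0.0724). After context it was 0.43 ± 0.11 (adjusted p = 0.0931), and with the replicate number as a block, since equal numbers deviated together in these 2 groups, 0.42 (adjusted p = 0.0234). CA3 had 38.4, 41.5 and 37.4 CPM after fear and 41.2, 51.4 and 31.7 CPM after context, against 24.1, 14.1 and 22.7 CPM in the home cage. Home cage 2 was the lowest of them and no group overlapped it, with changes of 1.03 ± 0.22 after fear (adjusted p = 0.15) and 1.15 ± 0.22 after context (adjusted p = 0.045).

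Fosl2 was less even in the other regions. LEC had 46.4, 41.6 and 43.4 CPM after fear and 47.9, 40.1 and 38.4 CPM after context, against 71.3, 21.3 and 18.9 CPM in the home cage. Home cage 1 was the highest of all 36 libraries for this gene, and the LEC changes were 0.22 ± 0.38 after fear and 0.17 ± 0.38 after context. Without that library they were 1.08 (adjusted p = 0.089) and 1.04 (adjusted p = 0.474). CA1 had 51.2, 29.0 and 25.7 CPM after fear and 17.8, 49.9 and 36.6 CPM after context, against 24.2, 20.04 and 22.9 CPM in the home cage, separate after fear only. Averaged over regions, Fosl2 rose by 0.65 ± 0.17 after fear (adjusted p = 0.00725) and by 0.63 ± 0.17 after context (adjusted p = 0.00967). The fear call was lost without fear 1 or home cage 2 of all regions and with GC and length offsets, at 0.43 (adjusted p = 0.0769), and the context call without context 2 or home cage 2.

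Fosl1 (ENSMUSG00000024912, chromosome 19, 5447547 to 5455946, plus strand) encodes Fra-1, and 57.2% of its exon bases overlap those of Ccdc85b on the other strand. Whether counting used strand is not given, so its counts are uncertain. It had 1.77 to 7.35 CPM over the 36 libraries, and no comparison between conditions called it. In LEC it had 3.64, 3.54 and 3.37 CPM after fear, against 2.99, 2.06 and 1.77 CPM in the home cage, a separation with a change of 0.60 ± 0.26 (adjusted p = 0.638). Its averaged changes were 0.24 ± 0.12 after fear (adjusted p = 0.141) and 0.06 ± 0.12 after context (adjusted p = 0.777).

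**Figure D2:**
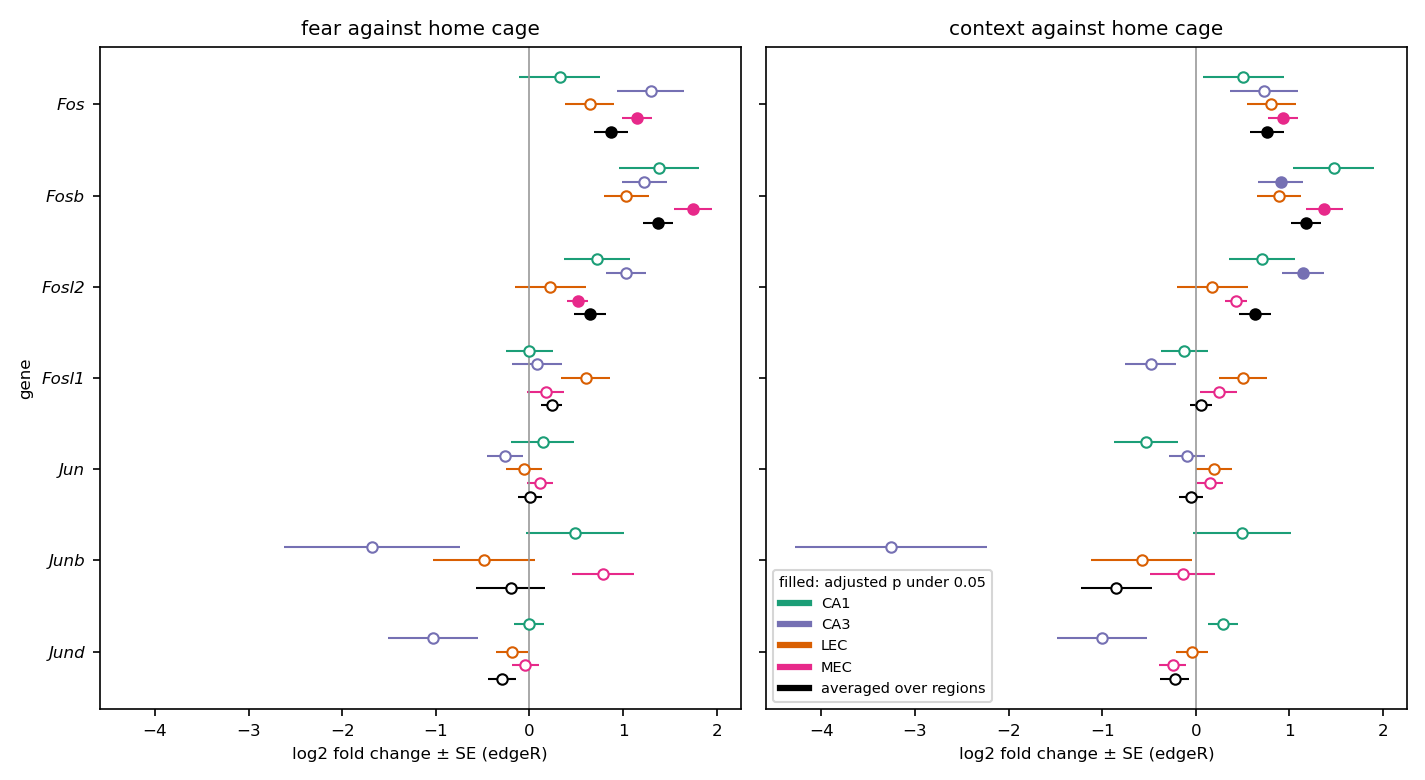
Log2 fold changes with standard errors (edgeR) of the 7 genes after fear and after context against home cage, in each region (colours) and averaged over regions (black), with filled points where the adjusted p was under 0.05. Fos, Fosb and Fosl2 lay above 0 in every region, and Junb in CA3 had the longest error bars.

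Jun (ENSMUSG00000052684, chromosome 4, 95049034 to 95052222, minus strand) encodes c-Jun, the main partner of c-Fos. It averaged 21.3 ± 2.03 CPM in fear, 21.9 ± 1.51 CPM in context and 20.2 ± 4.16 CPM in home cage libraries of MEC (SD, n = 3 each). No comparison between conditions called it, and its averaged change was 0.01 ± 0.13 after fear and -0.05 ± 0.13 after context. The change against home cage farthest from 0 was in CA1 after context, -0.53 ± 0.34 (adjusted p = 0.397), where the libraries had 8.12, 12.7 and 24.3 CPM after context, against 16.7, 24.4 and 27.1 CPM in the home cage.

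Junb (ENSMUSG00000052837, chromosome 8, 84974484 to 84978718, minus strand) encodes a Jun protein that activates more weakly than c-Jun and can restrain it. Its changes had the largest errors of the family. In MEC, Junb had 3.68, 5.91 and 4.38 CPM after fear and 1.61, 3.03 and 2.702 CPM after context, against 1.75, 1.998 and 4.35 CPM in the home cage. Home cage 3 reached the fear range, and the change after fear was 0.79 ± 0.33 (adjusted p = 0.138). It was called without home cage 3 (1.36, adjusted p = 0.00447) and with the replicate block (0.85, adjusted p = 0.0323), although the correlations did not pair the fear and home cage libraries.

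In CA3, Junb had 4.04, 6.18 and 2.44 CPM after fear and 3.02, 0.61 and 0.47 CPM after context, against 3.70, 36.8 and 3.17 CPM in the home cage. Home cage 2 stood far above the other home cage libraries, while context 2 and 3 were the lowest of all 36. Every context library lay below every home cage library, as 22.6% of all genes did, and the change after context was -3.25 ± 1.03 (adjusted p = 0.0581), which ranged from -4.56 to -1.22 with 1 library left out and was called by DESeq2 (adjusted p = 0.0194). After fear it was -1.68 ± 0.94 (adjusted p = 0.356), and without home cage 2 it was 0.37. The same library stood apart for Jund (ENSMUSG00000071076, chromosome 8, 70698949 to 70700616, plus strand), which encodes JunD. In CA3 it had 11.8, 11.8 and 9.95 CPM after fear and 14.8, 7.49 and 11.3 CPM after context, against 12.5, 49.9 and 11.7 CPM in the home cage. Of the exon bases of Jund, 52.6% overlap Gm11175 on the other strand, which had 0 counts in every library, and 7.52% of those of Junb overlap Prdx2 and 7.28% of those of Jun overlap Junos, also on the other strand.

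Junb and Jund are GC-rich, with 62.6% and 67.2% G or C in their longest transcripts, at the 98.5th and 99.5th percentile of genes. The 886 genes of the top 5% in GC content (59.5% or more) were shifted as a group in these libraries. Their median log2 difference from the other libraries of the same region was 1.11 in CA3 home cage 2, -1.05 in CA3 context 2 and -0.71 in CA3 context 3. Every other library lay between -0.62 and 0.42, each against its own region. CA3 home cage 2 was thus part of the reference for the other CA3 libraries. CA3 home cage 2 also had the highest oligodendrocyte marker sum of the 36 libraries, 13260 CPM, against 5271 to 8714 CPM in the other CA3 libraries. CA1 home cage 2 came next at 13150 CPM, with 1.79 CPM of Junb and 14.7 CPM of Jund. There Junb was the lowest of the 9 CA1 libraries, and Jund lay within the range of the other 8. The part of oligodendrocyte RNA in the Junb and Jund values was not tested. With GC and length offsets, Junb in CA3 was -1.85 after context (adjusted p = 0.169) and -0.80 after fear (adjusted p = 0.537). Jund was 0.76 after context with the offsets (adjusted p = 0.0483), against -1.003 ± 0.48 without them, so its direction in CA3 turns with this correction. Without home cage 2 Jund was -0.01 after context and -0.03 after fear. The GC measure and the offsets were added after these libraries were seen.

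**Figure D3:**
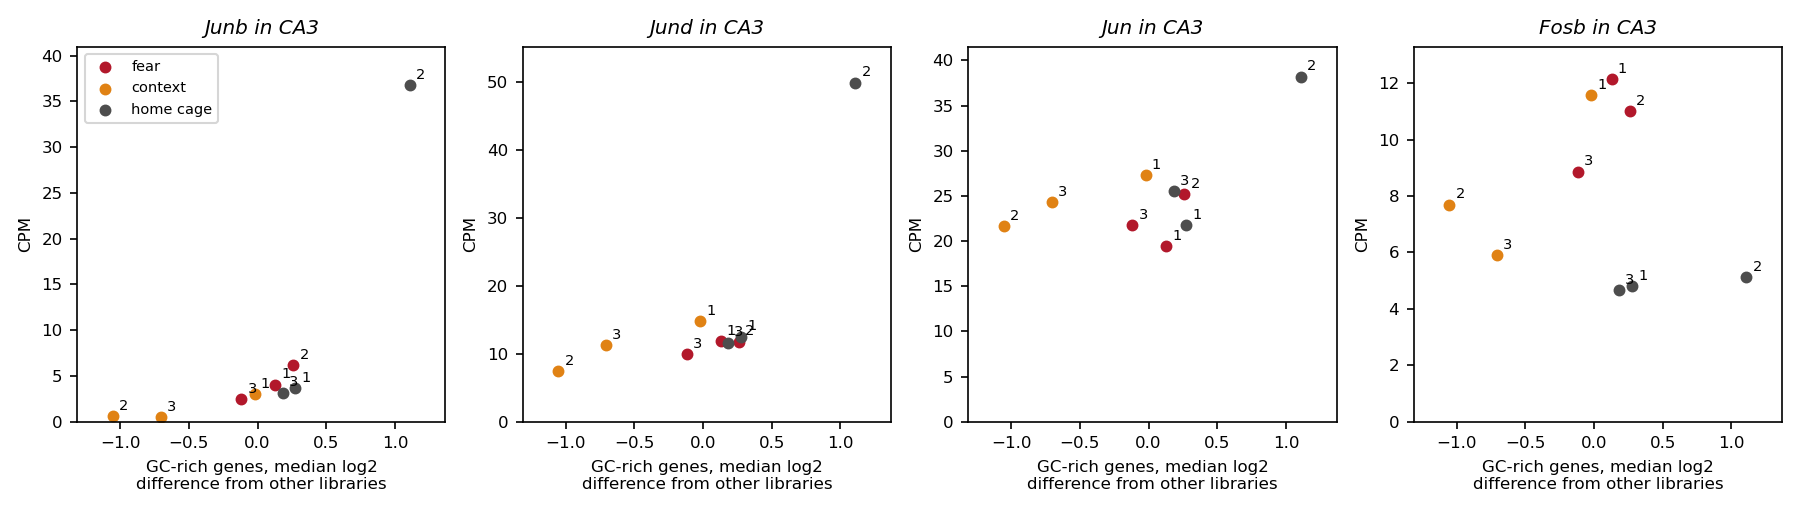
Levels of Junb, Jund, Jun and Fosb in the 9 CA3 libraries (CPM, numbered by replicate) against the median log2 difference of GC-rich genes from the other CA3 libraries. Home cage 2, at 1.11 on the horizontal axis, was the highest library for Junb, Jund and Jun, while Fosb in it was as low as in the other home cage libraries.

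In CA3, 2 of the 7 genes (Fosb and Fosl2) were called higher after context, where 5.77% of 16145 genes were called higher, 8.13% lower and 13.9% in all. Both calls were lost when any 1 fear library, context 2 or 3, or home cage 1 or 2 was left out (adjusted p up to 0.173), and with the dentate granule covariate (Fosl2 1.24, adjusted p = 0.0877, and Fosb 0.89, adjusted p = 0.0905). After fear, 0.00619% of genes and no member were called in CA3 by edgeR. An unadjusted p under 0.05 was found for 3 members, as for 3047 of 16145 genes. DESeq2 called 3 members, beside 544 of all genes. Blood markers in CA3 summed to 15.1 to 20.3 CPM in fear, 9.04 to 19.7 CPM in context and 32.4 to 58.4 CPM in home cage libraries, with 4 of 5 called lower after context and none of the 5 at 0. Their part in the CA3 results was not tested.

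In CA1 and LEC, edgeR called 0 of 7 genes against home cage, as it called 0% of all genes. In CA1 1 member had an unadjusted p under 0.05 after fear, as had 3553 of all 16163 genes, and 1 after context, as had 3449. DESeq2 called 1 member in each, beside 1303 and 945 of all genes. In LEC 3 members had such a p after fear (1242 of 16402 genes did) and 2 after context (403 genes did). Of these members DESeq2 called 1 and 0, beside 27 and 1 of all genes. Members above home cage without overlap were counted against the share of all genes doing so. After fear, CA1 held 2 (8.37% of genes), CA3 held 3 (9.3%), LEC 3 (6.85%) and MEC 3 (12%), with no member below (16.4%, 19.4%, 4.27% and 19.4% of genes in that order). After context, CA1 held 2 (9.71%), CA3 3 (10.5%), LEC 2 (4.25%) and MEC 3 (7.91%), and Junb in CA3 was the 1 member below (15.1%, 22.6%, 2.63% and 11.3% of genes).

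Fear against context asked whether the shock adds to the response to the context. No member was called in any region or in the averaged contrast by edgeR or by DESeq2. An unadjusted p under 0.05 was found for 1, Junb in MEC, where 2395 of 16314 genes had one. DESeq2 called 17 of all genes in CA1, 669 in CA3, 0 in LEC, 39 in MEC and 1991 in the averaged contrast. The share of all genes called by edgeR was 0% in each region and 3.37% in the averaged contrast. Members lying above context without overlap were Fosl1 in CA1 (7.72% of genes did) and in CA3 (13.5%), and Junb and Jund in MEC (11.9%), and Jund in CA1 lay below (7.39%). In LEC there was none above (4.94%) or below (4.26%). The Junb difference in MEC was 0.93 ± 0.34 (adjusted p = 0.322), and that of Fosl1 in CA3 was 0.56 ± 0.27 (adjusted p = 0.224). Averaged over the regions, fear minus context was 0.19 ± 0.15 for Fosb (adjusted p = 0.44), 0.11 ± 0.18 for Fos (adjusted p = 0.723) and 0.01 ± 0.17 for Fosl2 (adjusted p = 0.973). Such values do not show that the shock and context groups were alike.

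Whether the responses differed between regions was tested over all 36 libraries. No member passed for fear, where 0.0168% of 17875 genes did, or for context, where 0% did. Unadjusted p under 0.05 were found for no member after fear, beside 1452 of 17875 genes. After context they were found for 3 (Junb, Fosl1 and Jund), beside 3164 genes. DESeq2 called no member, beside 42 genes for fear and 126 for context. The responses of Fosb and Fos were therefore not told apart between regions: Fosb gave an adjusted p of 0.811 and Fos of 0.738 for the fear response.

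Levels were also compared between regions. Of 42 combinations of 7 genes and 6 region pairs, 16 were called, where 17.4% to 46.6% of all genes were called in a pair, so the family did not stand out from the background. Fos averaged 18.8 ± 6.36 CPM in MEC (SD, n = 9), 13.6 ± 4.22 CPM in LEC, 8.05 ± 4.84 CPM in CA3 and 8.10 ± 3.76 CPM in CA1. Both entorhinal regions exceeded both hippocampal fields, MEC by 1.13 ± 0.21 over CA1 (adjusted p = 5.05e-05) and 1.16 ± 0.21 over CA3 (adjusted p = 3.85e-05), and LEC by 0.72 ± 0.21 over CA1 (adjusted p = 0.00521) and 0.75 ± 0.21 over CA3 (adjusted p = 0.00447). Of the pairs not called, MEC against LEC was 0.41 ± 0.21 (adjusted p = 0.191) and CA3 against CA1 -0.03 ± 0.21 (adjusted p = 0.934).

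Fosb followed a like order, with 11.8 ± 5.72 CPM in MEC, 10.9 ± 3.75 CPM in LEC, 7.98 ± 3.04 CPM in CA3 and 5.82 ± 3.59 CPM in CA1. CA1 was below each other region, and the other pairs were not called. The closest of the called pairs, CA3 against CA1 at 0.57 ± 0.18 (adjusted p = 0.0174), was lost without fear 2, context 1 or home cage 2 of all regions. Fosl2 had 53.4 ± 9.12 CPM in MEC, 41.0 ± 15.3 CPM in LEC, 33.6 ± 11.6 CPM in CA3 and 30.8 ± 12.4 CPM in CA1, and MEC exceeded CA1 by 0.79 ± 0.20 (adjusted p = 0.00195) and CA3 by 0.63 ± 0.20 (adjusted p = 0.0126). Fosl1 ran the other way, with 5.53 ± 1.05 CPM in CA1, 4.52 ± 1.28 CPM in CA3, 4.14 ± 0.52 CPM in MEC and 3.02 ± 0.68 CPM in LEC. LEC was below CA1 by -0.90 ± 0.14 (adjusted p = 1.74e-06) and below CA3 by -0.64 ± 0.14 (adjusted p = 0.000275).

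Jun was 27.7 ± 4.81 CPM in LEC, 25.01 ± 5.51 CPM in CA3, 21.2 ± 2.54 CPM in MEC and 20.5 ± 7.01 CPM in CA1. LEC exceeded CA1 by 0.47 ± 0.15 (adjusted p = 0.0089), a call lost without fear 3 of all regions. The excess of CA3 over CA1 was 0.38 ± 0.15 (adjusted p = 0.0479), lost in 6 of the 9 fits that left out a replicate of all regions. Junb in LEC was below CA1 by -1.11 ± 0.43 (adjusted p = 0.0347), lost in 4 of those 9 fits. Jund was called in no pair, with mean levels of 13.95 to 15.7 CPM. The highest mean was that of CA3, where home cage 2 had 49.9 CPM and the median was 11.8 CPM. Without home cage 2 of all regions, Jund was called in CA3 against CA1 (adjusted p = 0.011) and in LEC against CA3 (adjusted p = 0.0483). With GC and length offsets 4 of its 6 region values turned sign, and LEC against CA1 was then called (0.29, adjusted p = 0.035).

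Per kilobase of exon, a scale on which genes can be compared, Jund had 8.36 to 9.41, Jun 6.42 to 8.68 and Fos 3.42 to 8.003 CPM per kb in the 4 regions, and in MEC Fos was above Jun. Fosb was lowest in CA1 and CA3, at 0.93 and 1.28 CPM per kb, against 1.75 in LEC and 1.89 in MEC. The share of each gene in the summed level per kb of the 7 genes shows how the makeup of the family shifted. In MEC, Fos made up 26.6% ± 2.78 in fear, 25.8% ± 0.62 in context and 17.1% ± 4.82 in home cage libraries (SD, n = 3), and Fosb 7.003% ± 1.39, 6.14% ± 0.44 and 2.99% ± 0.94 in the same order. Jund made up 22.3% ± 1.84 in fear, 21.7% ± 1.24 in context and 31.6% ± 2.49 in home cage libraries of MEC, and its fear and context shares did not overlap the home cage shares. A share also falls when other members rise. The level of Jund itself overlapped home cage in MEC, with log2 changes of -0.04 ± 0.14 after fear (edgeR, adjusted p = 0.87) and -0.25 ± 0.14 after context (adjusted p = 0.426). These shares are descriptions without a test, and the longest transcript in place of all exons moved 34 of 84 of them by more than 1 SD.

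**Figure D4:**
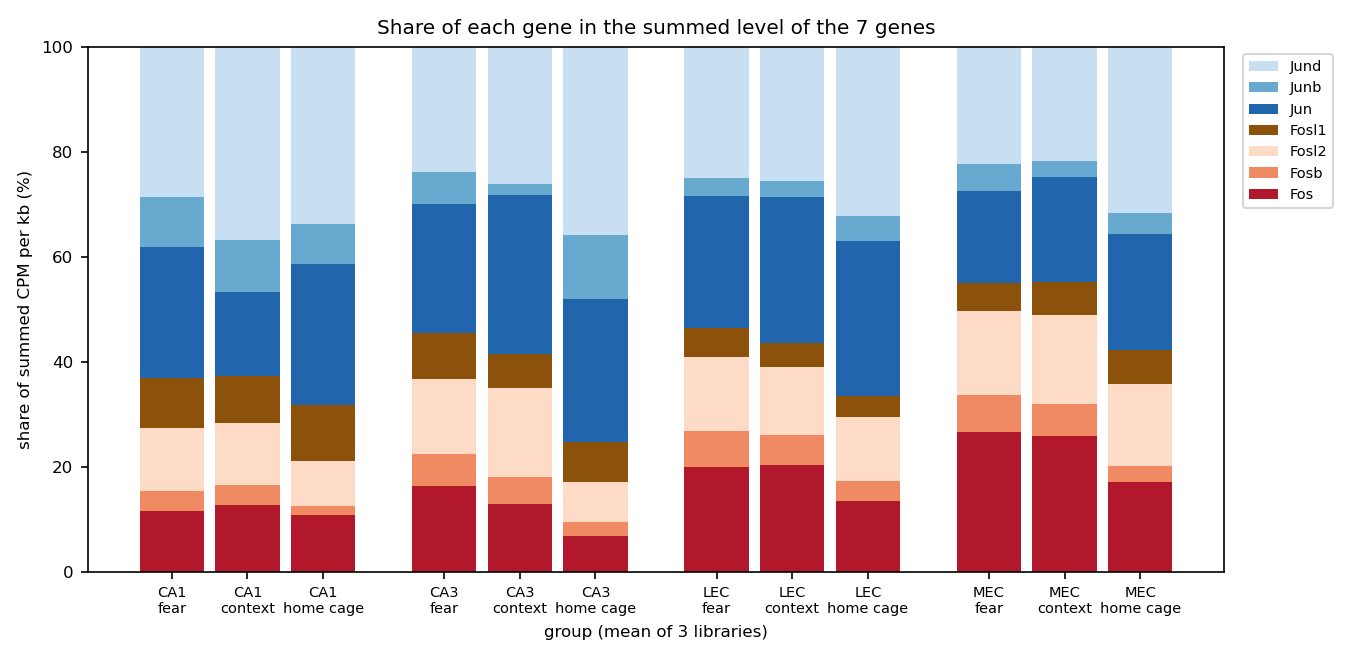
Share of each gene in the summed CPM per kb of exon of the 7 genes (mean of 3 libraries), by region and condition, Fos genes in red to brown and Jun genes in blue. In MEC the Fos share was 26.6% in fear, 25.8% in context and 17.1% in home cage libraries.

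Other genes of the pathway were counted in 4 lists. Of 8 other activity-induced immediate-early genes, 6 were called higher in MEC after fear and 2 after context (median log2 change 1.17 and 0.70, beside -0.01 and -0.02 over all genes). Of all genes, 5.68% were called higher there after fear and 0.497% after context. Egr1, a zinc finger transcription factor, rose by 1.39 ± 0.12 after fear, Egr3 by 1.60 ± 0.23, Egr2 by 2.18 ± 0.34 and the synaptic gene Arc by 1.43 ± 0.22. In CA3 after context Arc fell by 1.02 ± 0.24 (adjusted p = 0.045), while Fosb and Fosl2 rose there. The lowest adjusted p of any gene in that comparison was 0.045, so all its calls lay just under the threshold. Those of Fosb and Fosl2 were lost without home cage 1 or 2, context 2 or 3, or any 1 fear library. Of these, home cage 2 and context 2 and 3 had shifted GC-rich genes, and the part of that shift was not tested. Whether Arc and the genes named below for that comparison also depend on single libraries is not given. Averaged over regions, Egr1 rose by 1.12 ± 0.14 after fear and 1.09 ± 0.14 after context.

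Among other leucine zipper proteins that pair with or compete with AP-1 (11 of 12 in the table, 8 tested in MEC), none was called lower after fear in MEC. Jdp2, which pairs with Jun and represses, was called higher, at 0.80 ± 0.18 (adjusted p = 0.016). In CA3 after context, Atf2 rose by 0.69 ± 0.17 (adjusted p = 0.045) and Jdp2 fell by 0.88 ± 0.25 (adjusted p = 0.0466). Of 19 upstream regulators, kinases and factors known to act on Fos and Jun genes, 2 were called higher in MEC after fear, Mef2c at 0.48 ± 0.10 (adjusted p = 0.00989) and Mrtfb, a coactivator of serum response factor, at 0.33 ± 0.10 (adjusted p = 0.0418), where 5.68% of all genes were called higher. In CA3 after context 2 rose (Creb1 at 0.63 ± 0.16, Mef2a at 0.55 ± 0.17) and 2 fell (Srf at -0.72 ± 0.21, Mapk3 at -0.60 ± 0.14). Of all genes, 5.77% were called higher and 8.13% lower there. Averaged over regions 6 rose and 1 fell after fear, and 7 rose and 2 fell after context, where 24.1% and 22.1% of all genes were called.

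Of 10 genes reported as AP-1 targets in brain, 1 was called higher and 2 lower in MEC after fear, where 5.68% of all genes were called higher and 3.88% lower. Pdyn, the dynorphin precursor, rose by 1.42 ± 0.30 (adjusted p = 0.0143), while Penk, the enkephalin precursor, fell by 1.502 ± 0.33 (adjusted p = 0.0171) and Calb1, encoding calbindin, fell by 0.59 ± 0.13 (adjusted p = 0.0163). After context in MEC none of the 10 was called, where 0.57% of all genes were. In CA3 after context Scg2 rose by 0.51 ± 0.15 (adjusted p = 0.0459).

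The genes whose pattern over the 12 group means was most like that of a member were found among 13237 genes, by the root mean square difference of centred log2 CPM. For Fos these were Myo1e (0.20), Ppm1l (0.24), Etv6 (0.25), Hecw1 (0.25) and Ptprm (0.25), beside a spread of Fos itself of 0.64. Those nearest to Fosb were Lgr5 (0.32), Kcna2 (0.33), Atp8a2 (0.34), Ppm1l (0.36) and Tmem178b (0.36), beside 0.67 for Fosb. Fosl2 was nearest to 2900072N19Rik (0.15), Ppargc1a (0.17), Slc38a1 (0.17), Ppm1l (0.18) and Myo5a (0.18). For Fosl1 they were Urb1 (0.12), Krtcap3, Ncoa3, Hps4 and Nfkb1, for Jun Nek6 (0.14), Zfhx2os, Coa4, Dtd2 and Ctu1, and for Junb Map1s (0.19), Chpf, Ssbp4, Lmtk3 and Notch1. Jund was nearest to Pld4 (0.088), Tfpt, ENSMUSG00000096232, Trir and Dpm2. Ppm1l was thus among the nearest 5 of all 3 Fos genes that rose.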

How the data were processed

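Read counts per gene were deposited by the authors for 36 libraries, as 1 table and 36 single-library files equal to its columns. Per the submitters' processing notes the tools were Trimmomatic 0.33, STAR 2.7.10b and HTSeq 2.0.1 with mm10. Which gene annotation was counted, and whether by strand, is not given in the sources used here. Per the labels, RNA was extracted with TRIzol and libraries were made with a stranded, poly(A)-selecting TruSeq kit. The 37315 genes are Ensembl identifiers, of which 35533 (95.2%) matched a symbol, and no line lacked a gene.

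Counts were filtered with filterByExpr, normalized by TMM and tested with edgeR 4.0.16 (limma 3.58.1, R 4.3.3; quasi-likelihood, Benjamini-Hochberg over all genes). Each region was fitted alone (9 libraries), and the averaged contrasts, region pairs and interactions used a fit of all 36 libraries by group. Alternatives were RLE size factors, no filter, a replicate block, a marker covariate, a 36-library fit, DESeq2 1.42.0 and leaving out libraries, and, added after the data were seen, GC and length offsets. Figures were drawn with matplotlib 3.10.9 from tables made in pandas 2.3.3, with scipy 1.17.1 and numpy 2.4.6 under Python 3.11.15. The members and lists were chosen with earlier results of these data known. The 7 members were always named, then listed genes called in a comparison (at most 4 a list, by p), and the 5 genes of most like pattern per member, among those with a mean log2 CPM of at least 1. The result of 1 listed gene is not reported here.

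On simulated counts for fear against home cage, 2-fold changes were called for 78% of changed genes in CA1 (15884 genes), 76% in CA3 (15891), 80% in LEC (16115), 94% in MEC (16094) and 100% in the averaged contrast (17344), and 1.5-fold changes for 20%, 22%, 20%, 60% and 88%. The simulated libraries shared a common profile with spread set by level, so they held no outlying libraries, GC shift or differences in cell composition. These shares can therefore overstate what the fits of the data could call. In the data, Fosb after fear was not called at 2.61-fold in CA1, 2.34-fold in CA3 or 2.05-fold in LEC. The pairing of equal replicate numbers was checked by the correlation of deviations from group means. Over 17875 genes every correlation was over 0.1 in 1 of 12 comparisons of conditions (MEC context and home cage) and in 0 of 18 pairs of regions, and over 10149 genes with a mean log2 CPM of 3 or more in 2 of 12 (also CA1 fear and home cage) and 4 of 18. The second set of genes was chosen after the first, with calls under the block already seen. Promoter sequences are RefSeq's (GRCm38.p6).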

Additional observations from a re-analysis of the deposited data

Results flagged for a closer look

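The difference of Jund between fear and context lay on opposite sides of 0 in 2 regions, and neither was called. In MEC it had 13.2, 14.6 and 15.1 CPM in fear libraries, against 12.2, 12.4 and 12.6 CPM in context libraries, so every fear library lay above every context library (log2 difference 0.21). In CA1 it had 16.4, 11.07 and 15.02 CPM in fear libraries, against 17.2, 17.3 and 17.9 CPM in context libraries, so every fear library lay below every context library (log2 difference -0.30). Whether the 2 regions differ was not tested for this contrast, and the adjusted p was 0.47 in MEC and 0.852 in CA1 (edgeR). With GC and length offsets the MEC difference was -0.25, on the same side of 0 as in CA1.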

How the results depend on the processing

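Counts of members called that moved by more than 1.5 times are given here. DESeq2 called 1 (fear) and 1 (context) in CA1 in place of 0, 3 in CA3 after fear in place of 0 and 1 in LEC after fear in place of 0. Of all genes it called 1303, 945, 544 and 27 in the same order. The 36-library fit called 1 and 1 in CA1 in place of 0, 3 in CA3 after fear in place of 0, 4 in CA3 after context in place of 2, 1 in MEC after fear in place of 3 and 0 in MEC after context in place of 2. With the marker covariate 0 were called in CA3 after context and 0 in MEC after fear or context. GC and length offsets, added after the data were seen, called 1 in CA3 after fear in place of 0. The replicate block made Junb (0.85, adjusted p = 0.0323) in MEC after fear, Fosl2 (0.42, adjusted p = 0.0234) in MEC after context and Jun in MEC against LEC (-0.42, adjusted p = 0.0442) pass, and changed no other call of a member. Leaving out 1 library gave 0 to 2 calls in CA3 after fear, 0 to 3 in CA3 after context, 2 to 4 in MEC after fear, 0 to 2 in MEC after context, 2 to 3 averaged after fear, 1 to 3 averaged after context, 12 to 20 over region pairs (16 in the report) and 0 to 1 for the context response differing between regions. The causes were not tested. The lowest count of a member was 12, for Junb in a CA3 library.

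Log2 differences that changed sign, none of them called in the report, were as follows. With GC and length offsets they were CA1 fear Fosl1 0.0040, CA1 context Fosl1 0.031, CA1 fear against context Fosl1 -0.026 and Fosl2 -0.12, CA3 fear Jund 0.0045, CA3 context Jun 0.42 and Jund 0.76 and Fosl1 0.37, CA3 fear against context Fosb -0.12, LEC fear against context Fosl2 -0.083, MEC fear Jun -0.053, MEC context Junb 0.059, MEC fear against context Jund -0.25 and Fosl2 -0.011, averaged fear Jun -0.073 and Junb 0.019, averaged context Jun 0.081 and Jund 0.27, averaged fear against context Jun -0.15 and Fosl1 -0.064 and Fosl2 -0.15 and Fosb -0.043, CA3 against CA1 Jund 0.085, LEC against CA1 Jund 0.29, LEC against CA3 Jund 0.21, MEC against CA1 Jund 0.052. With the marker covariate they were CA1 context Jun 0.026 and Fos -0.45 and Junb -0.18, CA1 fear against context Fos 0.82 and Junb 0.76 and Fosb 0.79, CA3 fear against context Jund 0.067, LEC fear Jun 0.0083, MEC fear Jund 0.17, MEC context Junb 0.062, MEC fear against context Jun 0.12. The 36-library fit gave CA1 fear Jund 0.00077, the replicate block CA1 fear Fosl1 0.040 and no filter CA1 fear against context Junb 0.0035. Ranges that crossed 0 when a library was left out were: CA1 fear Jun -0.045 to 0.29, Jund -0.11 to 0.16, Fosl1 -0.25 to 0.16. CA1 context Fosl1 -0.37 to 0.055, Fos -0.29 to 0.83. CA1 fear against context Fos -0.50 to 0.62, Fosl2 -0.34 to 0.39, Junb -0.29 to 0.28, Fosb -0.39 to 0.62. CA3 fear Fosl1 -0.051 to 0.36, Junb -2.15 to 0.37. CA3 context Jun -0.25 to 0.15. CA3 fear against context Jund -0.24 to 0.22, Fos -0.030 to 0.84, Fosl2 -0.27 to 0.085. LEC fear Jun -0.22 to 0.037, Fosl2 -0.082 to 1.08, Junb -0.90 to 0.26. LEC context Jund -0.12 to 0.10, Fosl2 -0.13 to 1.04, Junb -0.98 to 0.18. LEC fear against context Fosl2 -0.036 to 0.16, Junb -0.32 to 0.33. MEC fear Jun -0.031 to 0.21, Jund -0.17 to 0.079. MEC context Junb -0.36 to 0.43. MEC fear against context Jun -0.084 to 0.034, Fosl1 -0.13 to 0.021. Averaged fear Jun -0.091 to 0.13, Junb -0.33 to 0.14. Averaged context Jun -0.18 to 0.070, Jund -0.30 to 0.015. Averaged fear against context Jun -0.032 to 0.19, Fos -0.024 to 0.42, Fosl2 -0.091 to 0.17. CA3 against CA1 Jund -0.38 to 0.075, Fos -0.30 to 0.17, Junb -1.24 to 0.025. LEC against CA3 Jund -0.22 to 0.28, Junb -1.08 to 0.050. MEC against CA1 Jun -0.013 to 0.23. MEC against CA3 Jund -0.29 to 0.19, Junb -0.88 to 0.21. MEC against LEC Jund -0.14 to 0.015, Junb -0.19 to 0.46, Fosb -0.14 to 0.076.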
